A study of Homo sapiens with 6 samples.

Results

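The genes described here are 10 members of the basic helix-loop-helix (bHLH) family and its inhibitors: ID1, ID2, ID3 and ID4, the E proteins TCF3, TCF4 and TCF12, and the repressors BHLHE40, BHLHE41 and HES1. A probe set, which is a group of short probes read as 1 measurement, was taken as a member where the platform annotation gave it a single symbol from these 10. The rule found 44 probe sets of 54613 on the array once the Affymetrix controls were set aside. They cover all 10 genes, of 19775 genes that had a probe set of their own. Arrays were made from 3 induced samples (48 h without tetracycline) and 3 uninduced samples (tetracycline kept, also titled 48 h) of the cell line U937T:PLZF-RARa, 1 Affymetrix gene expression array each. U937 is a human monocytic leukaemia line. This derivative was kept in puromycin, G418 and tetracycline, and it makes PLZF-RARa, a fusion of the repressor PLZF (ZBTB16) with the retinoic acid receptor RARA found in acute promyelocytic leukaemia, when tetracycline is washed out. Both groups are the same engineered line, so the comparison asks what expression of the fusion together with removal of tetracycline changes, and the 2 cannot be told apart; whether the line is a single clone is not given in the sources used here.

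E proteins bind the E-box, a short DNA element, as dimers with each other or with lineage factors such as TAL1, and they drive differentiation programmes in blood cells. ID proteins carry the dimerisation helices without the DNA-binding region, so an ID protein that pairs with an E protein keeps it off DNA. BHLHE40 and BHLHE41 are E-box repressors of the circadian clock and of the response to differentiation signals, and HES1 is a repressor downstream of Notch receptors.

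The probe sets of the fusion partners and the line's own markers give the setting. RARA probe set 211605_s_at had a mean log2 intensity of 7.58 ± 0.17 in induced and 1.87 ± 0.10 in uninduced samples (SD, n = 3 each), a signal at least 12-fold greater with induction (adjusted p = 1.90e-07 by limma). RARA probe set 203749_s_at was lower (3.99 in induced and 5.16 in uninduced samples) and the RARA probe sets 203750_s_at and 216300_x_at did not pass the test. The ZBTB16 probe set 205883_at, of the other fusion partner, went the opposite way to 211605_s_at, with 3.29 ± 0.59 in induced and 5.25 ± 0.21 in uninduced samples (SD, n = 3 each), a fall of at least 2.38-fold by limma (adjusted p = 8.12e-04). Of 9 myeloid markers with a probe set 7 were above the filter (PTPRC, ITGB2, LYZ, AZU1, ELANE, CTSG and SPI1), and MPO and FCGR1A were not; of the 7, PTPRC was higher in induced samples and the other 6 were lower. Of 17 markers of T, B, erythroid, epithelial and stromal cells 4 were above it: PAX5 (4.76 in induced and 4.90 in uninduced samples), EPOR (4.71 and 4.70), KLF1 (2.90 and 5.48) and COL1A1 (7.71 and 8.26). The COL1A1 values are those of its brightest probe set, and of its 3 tested probe sets 2 were higher and 1 lower. Arrays correlated at r = 0.9963 to 0.9976 within a group and at r = 0.932 to 0.938 between groups. The 75th percentile of log2 intensity lay between 7.11 and 7.18 except in the third uninduced array, where it was 6.92. The log2 difference between the 3' and 5' control probe sets is a sign of RNA integrity. For GAPDH it averaged 0.579 ± 0.034 in induced and 0.503 ± 0.025 in uninduced samples (SD, n = 3 each). For ACTB it was larger, 1.41 ± 0.1 in induced and 1.25 ± 0.083 in uninduced samples (SD, n = 3 each). The part of RNA integrity in the results was not tested. Nothing in the labels says that the numbered replicates were grown separately, so each p-value below describes the spread among these arrays, and 3 arrays a group limit the precision.

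Induced cells had less ID1 and BHLHE40 signal and slightly more ID2, TCF4 and TCF12 signal than uninduced cells, while TCF3 differed between its probe sets. ID3, ID4, BHLHE41 and HES1 had no probe set bright enough to test, which took a log2 value above 4 (16 on the linear scale) in 3 or more of the 6 arrays. That filter passed 21 of the 44 probe sets. By limma, with p-values adjusted by Benjamini-Hochberg across the 20552 probe sets tested, 11 of the 21 were higher, 3 were lower and 7 did not pass 0.05. Over all tested probe sets 62.5% were called, 34.6% higher and 27.9% lower, so a call by itself does not set these genes apart. Read by the brightest tested probe set of each gene, 4 of the 6 measured genes were higher and 2 lower, where 66.5% of 9836 genes were called, 35.8% higher and 30.7% lower. In 17 of the 21 no induced array fell within the uninduced range or the reverse, against 70.2% of all tested probe sets. The median absolute log2 difference was 0.41 over the 21 and 0.40 over all. In a bulk sample, fewer cells that express a gene and less RNA in each cell cannot be told apart.

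**Figure D1:**
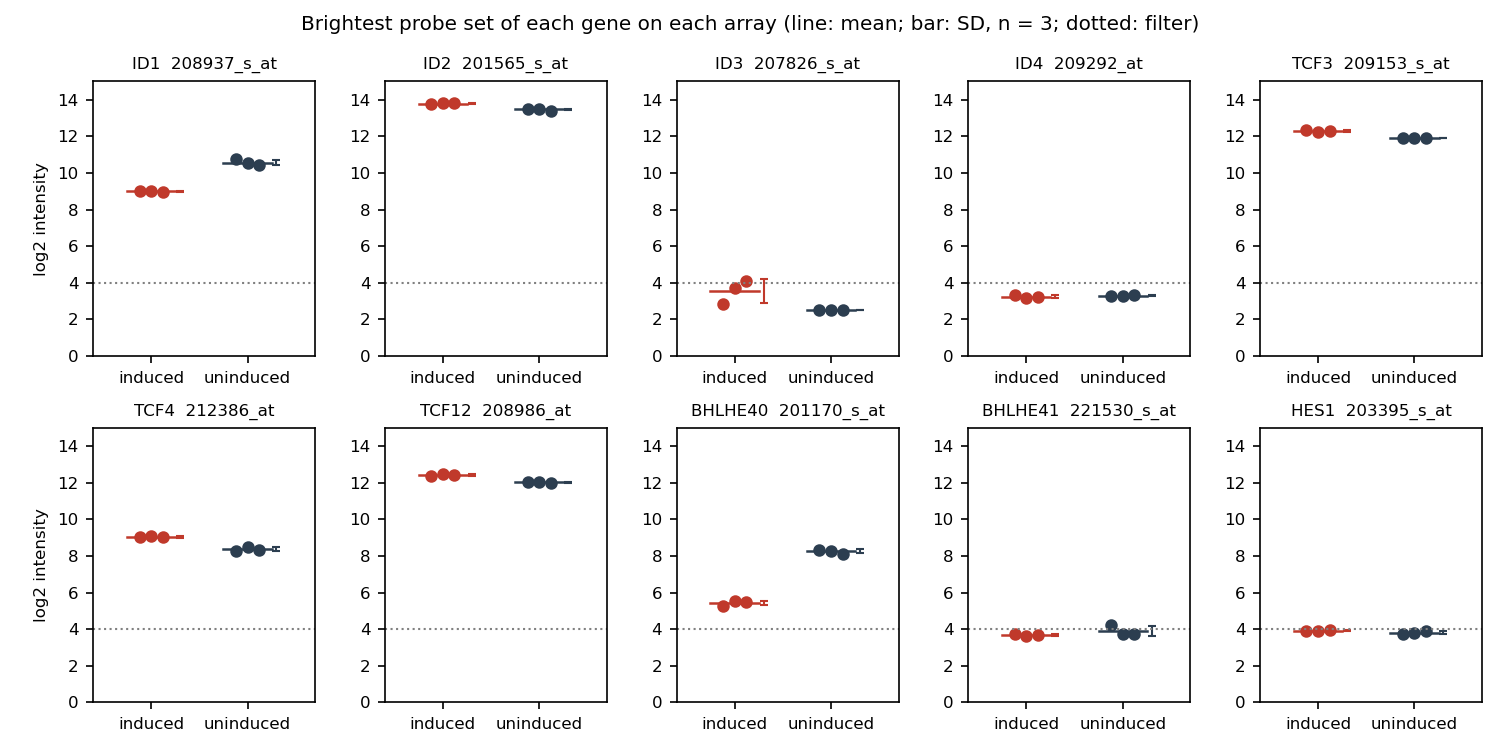
Log2 intensity (vertical axis) of the brightest probe set of each of the 10 genes on the 3 induced and the 3 uninduced arrays; points are arrays, lines are means, bars are SD (n = 3) and the dotted line is the filter at 4. ID1 and BHLHE40 are separated widely with the induced arrays below, ID2, TCF3, TCF4 and TCF12 narrowly with the induced arrays above, and ID3, ID4, BHLHE41 and HES1 lie around or under the filter.

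Among the ID genes, ID1 and ID2 moved in opposite directions. ID1 (208937_s_at), an inhibitor best known as a target of BMP signalling, had log2 intensities of 9.04, 9.00 and 8.98 in induced samples, against 10.74, 10.55 and 10.42 in uninduced samples. All 3 induced arrays lay more than a log2 unit below the lowest uninduced array, and they differed from each other by less than the uninduced ones did. The difference was -1.56 (95% confidence interval -1.78 to -1.35), a 2.95-fold lower signal (limma, adjusted p = 1.13e-05). Of the tested probe sets 631 fell by as much or more, and 92.0% changed by less in either direction. ID2, an inhibitor with roles in lymphoid and myeloid lineage choice, had 13.75, 13.80 and 13.83 in induced samples and 13.49, 13.51 and 13.41 in uninduced samples with probe set 201565_s_at. The groups did not overlap and the rise was small, 0.32 (interval 0.18 to 0.47) or 1.25-fold (adjusted p = 0.00312). The other ID2 probe set, 201566_x_at, had 10.94, 11.00 and 11.00 in induced and 10.51, 10.63 and 10.67 in uninduced samples and rose by 0.38 (interval 0.22 to 0.53; adjusted p = 0.00202). These are changes of middling size, since 43.1% and 47.8% of tested probe sets changed by less.

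Taken within each array, where the array's overall scale cancels, ID1 (208937_s_at) minus ID2 (201565_s_at) was -4.70, -4.80 and -4.85 in induced samples and -2.75, -2.95 and -2.99 in uninduced samples. The shift of -1.89 is in log2 units and says that the probe sets changed unequally, not which transcript is more abundant. ID1 shifted by -1.98 relative to TCF3 (209153_s_at), -2.24 relative to TCF4 (212386_at) and -1.97 relative to TCF12 (208986_at). ID1 fell and these 3 probe sets rose, each without overlap between groups, so their differences had to be separated too. The shifts restate those changes and add no further support. ID2 (201565_s_at) shifted little against the same TCF12 and TCF3 probe sets, by -0.09 each, and by -0.36 against that of TCF4. The groups overlapped for TCF3 but not for TCF12 or TCF4. Such shifts depend on the probe set read. The tested TCF12 probe sets changed by 0.41 to 0.84 and those of TCF3 by -0.73 to 0.42.

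ID3, which like ID1 responds to BMP signals in many cells, was near the array's floor. Its only probe set, 207826_s_at, had 2.83, 3.71 and 4.11 in induced samples and 2.50, 2.51 and 2.52 in uninduced samples. The groups did not overlap, the induced arrays were spread over more than a log2 unit, and 1 of the 6 arrays was above the filter. No fold is given, since the means of both groups, 3.55 and 2.51, lie under the filter, and with no filter the adjusted p was 0.0988 (limma). ID4, an inhibitor studied mostly in neural and germ cells, stayed between 2.07 and 3.35 on every array in all 5 of its probe sets. None of the 5 varied by more than 0.16 across the 6 arrays, so a change in ID4 could not be seen at this brightness.

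The promoters of both ID genes that passed the filter are printed because these genes moved in opposite directions. Each window holds 250 bases before and 50 after a transcription start of RefSeq on build GRCh38.p14, and lies for ID1 at chr20:31605039-31605338, plus strand and for ID2 at chr2:8681806-8682105, plus strand. Capitals mark the letters CANNTG, the general E-box bound by bHLH dimers, and CACNAG or its reverse CTNGTG, the N-box known from HES1 binding, on either strand.
ID1: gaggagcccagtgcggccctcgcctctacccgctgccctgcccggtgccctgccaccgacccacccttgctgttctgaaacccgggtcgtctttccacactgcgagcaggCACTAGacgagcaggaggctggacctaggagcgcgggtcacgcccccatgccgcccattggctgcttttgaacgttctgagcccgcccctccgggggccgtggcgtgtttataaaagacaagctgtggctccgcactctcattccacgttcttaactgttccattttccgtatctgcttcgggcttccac
ID2: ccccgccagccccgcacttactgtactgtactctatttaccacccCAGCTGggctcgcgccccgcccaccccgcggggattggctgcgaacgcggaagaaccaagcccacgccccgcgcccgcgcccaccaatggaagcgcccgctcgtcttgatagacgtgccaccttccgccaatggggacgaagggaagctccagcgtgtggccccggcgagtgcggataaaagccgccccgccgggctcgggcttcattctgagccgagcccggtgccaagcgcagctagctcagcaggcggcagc
ID1 held no match to CANNTG and 1 to CACNAG, which begins at base -140 relative to the start. ID2 held 1 match to CANNTG, read as CAGCTG and beginning at base -205, but none to CACNAG. Among all 35116 promoter windows 68.7% held CANNTG and 38% held CACNAG. A match describes letters and not a bound site, and a window without one says nothing about the factor.

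Among the E proteins, TCF4 and TCF12 rose and TCF3 was divided between its probe sets. Of 26 E protein probe sets 17 were tested, of which 9 rose, 1 fell and 7 did not pass. Over all tested probe sets 62.5% were called, 34.6% higher and 27.9% lower. TCF4 (E2-2), the E protein of plasmacytoid dendritic cells, rose in 5 of its 6 tested probe sets, by 0.59 to 0.71. Its brightest, 212386_at, had 9.03, 9.12 and 9.02 in induced samples and 8.30, 8.50 and 8.32 in uninduced samples, a rise of 0.68 (interval 0.50 to 0.86) or 1.60-fold (limma, adjusted p = 2.46e-04). Probe set 213891_s_at had 8.63, 8.51 and 8.56 in induced and 7.99, 8.02 and 7.76 in uninduced samples, and it rose 1.56-fold (adjusted p = 5.40e-04). Every induced array was above every uninduced one in both of these.

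Of the dimmer TCF4 probe sets, 222146_s_at rose by 0.71 (7.29, 7.14 and 7.05 in induced against 6.52, 6.29 and 6.53 in uninduced samples; adjusted p = 5.80e-04). Probe set 203753_at rose by 0.62 (7.99, 7.70 and 7.95 against 7.49, 7.28 and 7.01; adjusted p = 0.00661). Probe set 212382_at had 6.24, 5.55 and 6.14 in induced samples and 5.47, 5.43 and 5.25 in uninduced samples, so induced replicate 2 lay next to the uninduced arrays. It passed the test (0.59, adjusted p = 0.0247) but lost its call when no filter was set (adjusted p = 0.112), after quantile normalization (0.38, adjusted p = 0.0885), or without induced replicate 1 (0.0786), induced replicate 3 (0.0744), uninduced replicate 2 (0.0512) or uninduced replicate 3 (0.0789). The remaining tested TCF4 probe set, 212387_at, read 6.17 to 6.19 on all 6 arrays, a spread as narrow as that of the dimmest probe sets, although it lay above the filter. Its difference was 0.01 (interval -0.12 to 0.13; adjusted p = 0.929), and after quantile normalization it was -0.20 and passed (adjusted p = 0.0314).

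TCF12 (HEB), an E protein of thymocytes and progenitor cells, rose in both tested probe sets. The brighter, 208986_at, had 12.36, 12.49 and 12.43 in induced samples and 12.03, 12.07 and 11.97 in uninduced samples, a rise of 0.41 (interval 0.26 to 0.56; limma, adjusted p = 0.00128). The other, 238041_at, had 10.13, 10.10 and 9.99 in induced samples and 9.31, 9.20 and 9.21 in uninduced samples and rose by 0.84 (interval 0.68 to 1.00), or 1.79-fold (adjusted p = 4.91e-05). The intervals of these 2 probe sets do not meet, so the size of the rise depended on which was read. The 2 dim TCF12 probe sets, 215611_at and 233678_at, reached no more than 4.07 on any array.

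TCF3 (E2A), the E protein needed for B cell development and the source of E12 and E47, had 14 probe sets, and these did not move as 1. Of 9 tested, 2 rose, 1 fell and 6 did not pass. The brightest, 209153_s_at, had 12.37, 12.26 and 12.31 in induced samples and 11.91, 11.90 and 11.89 in uninduced samples. The groups were far apart relative to their spread, and the rise was 0.42 (interval 0.28 to 0.56) or 1.33-fold (limma, adjusted p = 7.15e-04). Probe set 213811_x_at rose by 0.21 (11.09, 11.11 and 11.04 against 10.92, 10.92 and 10.79; adjusted p = 0.0270), a call that was lost without any 1 of the 3 induced arrays (adjusted p = 0.0559 to 0.0752) and after median centring (0.0619).

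A further 3 bright TCF3 probe sets had induced arrays above uninduced ones without passing. They were 213730_x_at at 0.21 (interval 0.02 to 0.40; adjusted p = 0.0558), 209152_s_at at 0.15 (interval -0.03 to 0.34; adjusted p = 0.126) and 210776_x_at at 0.14 (interval -0.01 to 0.29; adjusted p = 0.101). Of these, 213730_x_at passed under 6 of the 13 alternatives. The probe sets 215260_s_at, 209151_x_at and 216647_at differed by 0.06, -0.12 and 0.03 and their groups overlapped. After quantile normalization 209151_x_at was at -0.31 and passed as lower (adjusted p = 0.0230).

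Probe set 202648_at went the other way, with 5.44, 5.01 and 5.05 in induced samples and 5.83, 5.99 and 5.87 in uninduced samples. It fell by 0.73 on the log2 scale (adjusted p = 0.00181) with no overlap, and it is dim, at 5.17 ± 0.24 in induced and 5.90 ± 0.09 in uninduced samples (SD, n = 3 each). Its tie to TCF3 rests on the platform annotation; it may measure another transcript, which was not tested, and where in the transcript each probe set lies was not analysed here. The value for TCF3 depended on which probe sets were read: 0.42 by the brightest, 0.04 by the mean over its 9 tested probe sets (adjusted p = 0.597) and -0.73 when those with the suffix _x_at or _s_at, whose probes may match more than 1 transcript, were left out (adjusted p = 0.00210). The last of these values is that of 202648_at alone, the brighter of the tested probe sets left, and carries the same doubt. The dimmer one, 216647_at, had 4.98 in induced and 4.94 in uninduced samples. It differed by 0.03 and did not pass (limma, adjusted p = 0.825).

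**Figure D2:**
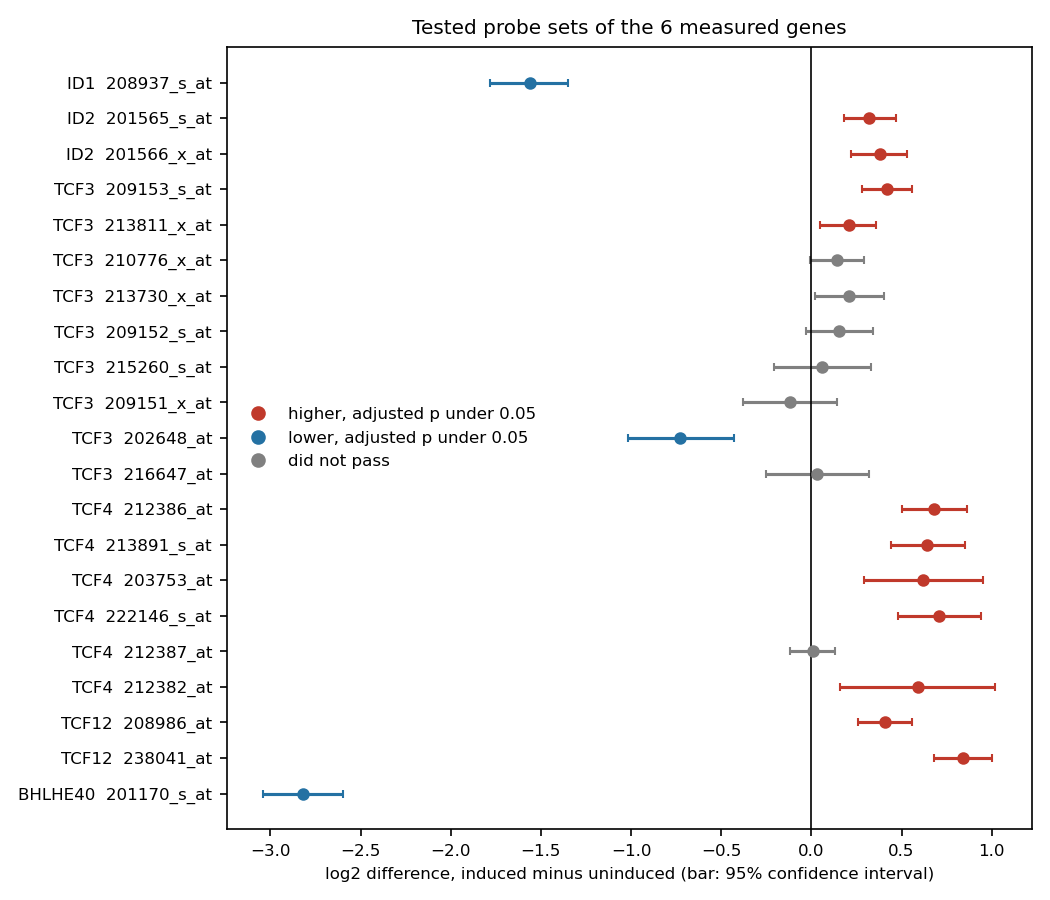
Log2 difference, induced minus uninduced (horizontal axis), of the 21 tested probe sets of the 6 measured genes; points are limma estimates, bars 95% confidence intervals, red marks higher, blue lower and grey not passed. The TCF4 probe sets other than 212387_at lie together at 0.59 to 0.71, whereas those of TCF3 run from -0.73 to 0.42.

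**Figure D3:**
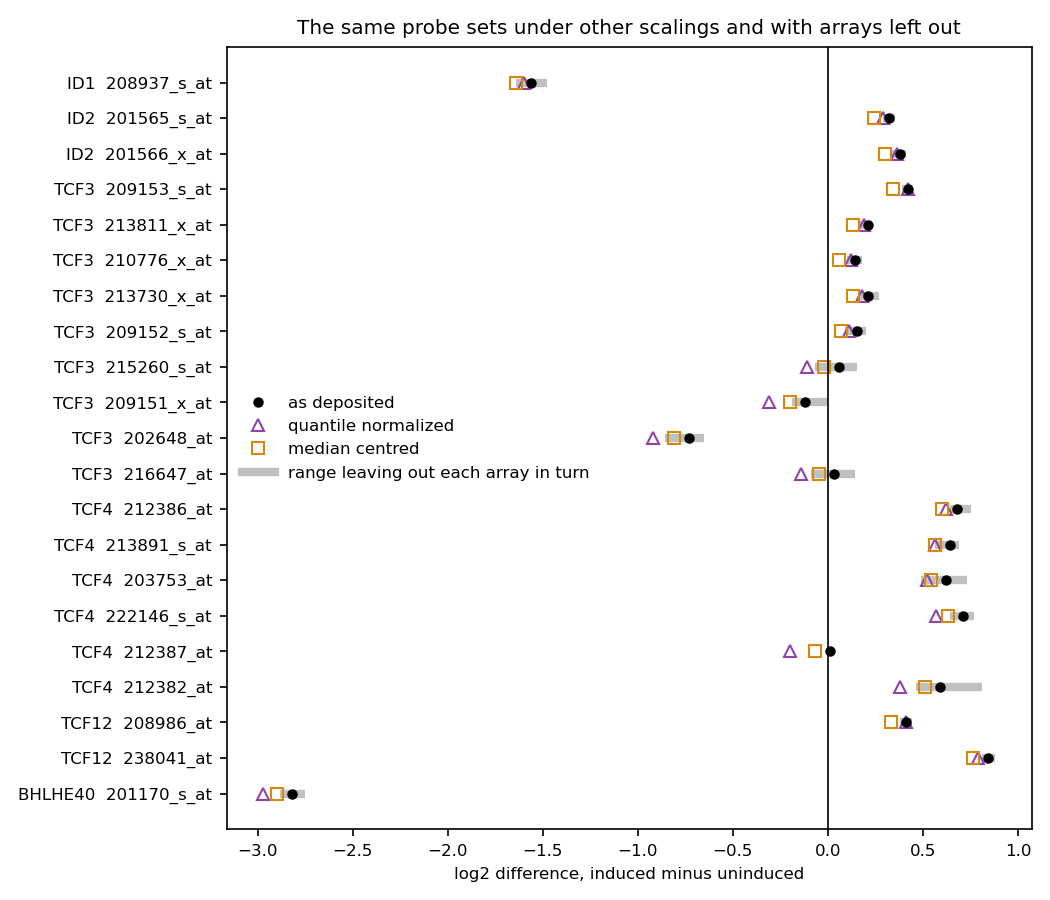
The same 21 log2 differences (horizontal axis) as deposited (black points), after quantile normalization (triangles) and median centring (squares), with grey bars for the range when each array was left out in turn. ID1, BHLHE40 and 202648_at stay below 0, both ID2 probe sets stay above it, and TCF3 215260_s_at, TCF3 216647_at and TCF4 212387_at change side after both scalings.

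Of the repressors only BHLHE40 could be tested. BHLHE40 (DEC1) represses clock genes, and its mouse counterpart was described as a gene induced by retinoic acid. Probe set 201170_s_at had 5.29, 5.54 and 5.48 in induced samples and 8.34, 8.30 and 8.13 in uninduced samples. The lowest uninduced array lay far above the highest induced one, by many times the spread within either group. The difference was -2.82 (interval -3.04 to -2.60), a 7.06-fold lower signal (limma, adjusted p = 1.35e-06). It was the largest difference among the 21 probe sets, and 98.3% of all tested probe sets changed by less. The other BHLHE40 probe set, 201169_s_at, read 2.02 to 2.05 on all 6 arrays, so it could show no fall.

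BHLHE41 (DEC2), the close relative of BHLHE40, had 4 probe sets between 2.13 and 4.21. Its brightest, 221530_s_at, had 3.74, 3.64 and 3.71 in induced samples and 4.21, 3.72 and 3.74 in uninduced samples, so 1 uninduced array was above the filter and the groups overlapped. HES1 had 3 probe sets that reached at most 3.97. The brightest, 203395_s_at, had 3.92, 3.88 and 3.97 in induced and 3.74, 3.82 and 3.88 in uninduced samples, which overlapped at 3.88. No change in either gene could be established at this brightness.

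The promoter windows of BHLHE40 (chr3:4979187-4979486, plus strand) and BHLHE41 (chr12:26124988-26125287, minus strand) of RefSeq, build GRCh38.p14, are printed because CACGTG, the E-box that BHLHE repressors themselves are known to bind, occurs in both. Capitals mark CANNTG, of which CACGTG is a form; neither window held CACNAG.
BHLHE40: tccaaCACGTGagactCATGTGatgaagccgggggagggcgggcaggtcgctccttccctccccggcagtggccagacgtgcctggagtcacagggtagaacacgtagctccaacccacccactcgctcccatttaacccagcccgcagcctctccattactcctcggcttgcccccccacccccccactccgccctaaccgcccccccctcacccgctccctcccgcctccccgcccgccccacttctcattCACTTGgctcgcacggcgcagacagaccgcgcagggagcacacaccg
BHLHE41: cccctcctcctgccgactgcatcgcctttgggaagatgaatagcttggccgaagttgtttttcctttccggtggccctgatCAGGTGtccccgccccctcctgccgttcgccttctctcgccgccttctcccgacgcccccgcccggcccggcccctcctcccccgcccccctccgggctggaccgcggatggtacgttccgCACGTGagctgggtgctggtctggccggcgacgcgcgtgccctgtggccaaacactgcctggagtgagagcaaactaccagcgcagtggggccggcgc
In BHLHE40 the form CACGTG begins at base -245 relative to the start. The form CATGTG begins at base -234, and a further match, CACTTG, at base 4. In BHLHE41 the form CACGTG begins at base -48, and CAGGTG lies at base -169. CACGTG occurred in 7.26% of all windows and in 4 of the 23 windows of the 10 genes, the others being 1 each of TCF12 and TCF4, which have several starts. The HES1 window had 4 matches to CACNAG and none to CANNTG. The letters GGCGCC, known from BMP-responsive elements of ID genes, were in 1 window, of TCF12, against 19.2% of all. Direct repeats of the retinoid receptor half-site AGGTCA spaced by 5 or by 2 bases were in none of the 23 windows, and in 2 and 1 of the 35116.

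Over the 6 arrays, the genes whose centred log2 values lay closest to those of BHLHE40 (201170_s_at) were ELANE, FDXACB1 and ZC3H12D, at Euclidean distances of 0.0939, 0.153 and 0.162, out of 9835 genes ranked. ELANE, the neutrophil elastase, had 10.01, 10.25 and 10.11 in induced and 13.03, 12.92 and 12.81 in uninduced samples, a difference of -2.80. FDXACB1 was at -2.82, with all 3 induced arrays below the filter, and ZC3H12D was also at -2.82. With 2 conditions this measure mostly ranks genes by the size of their difference.

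Among the partners of E proteins TAL1 rose and LYL1 fell. Lineage-restricted bHLH factors, which bind E-boxes as dimers with E proteins, were mostly unmeasured: of 26 genes 22 had a probe set and 3 passed the filter. TAL1 (206283_s_at), a factor of blood stem cells and erythroid cells, rose to 6.39 ± 0.14 in induced samples, against 4.17 ± 0.03 in uninduced samples (SD, n = 3 each), 4.64-fold (limma, adjusted p = 2.35e-06). The uninduced arrays, at 4.15 to 4.21, lay just above the filter, so the fold rests on values near the floor. Of 4 TAL1 probe sets only this 1 was tested. LYL1 (210044_s_at), a relative of TAL1, had 9.60 ± 0.02 in induced and 11.72 ± 0.10 in uninduced samples, 4.36-fold lower (adjusted p = 1.33e-06). ASCL2 (229215_at) was 1.53-fold lower (adjusted p = 8.46e-04). The other 19 with a probe set lay under the filter.

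Of 15 cofactors that assemble with E protein complexes 11 were tested, of which 7 rose and 2 fell, or 81.8% called, beside 66.5% of all 9836 tested genes; the median was 0.63 on the log2 scale, against 0.02 over all genes. SSBP2, a stabiliser of the LDB1 complex, was 5.07-fold higher (11.69 ± 0.03 in induced and 9.35 ± 0.09 in uninduced samples, SD, n = 3 each), and all 6 of its probe sets rose. The acetyltransferases KAT2B and EP300 were 4.18-fold and 2.18-fold higher (adjusted p = 7.70e-07 and 4.17e-05), and SSBP3 was 2.11-fold higher. LMO2, the bridge between TAL1 and GATA factors, rose by 0.43. The 2 that fell were LMO4 (-0.50) and CBFA2T3 (-0.78), a corepressor of the ETO family, both named after their values were seen, as was LMO2.

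Of 15 relatives and corepressors of HES1 (HES, HEY and TLE genes) 14 had a probe set, 10 lay under the filter and 4 were tested. HES6, which opposes HES1, was 1.31-fold lower (adjusted p = 0.00143). Of the Groucho corepressors that HES proteins recruit, TLE4 was 1.24-fold higher, and TLE3 differed by -0.07 without passing (adjusted p = 0.647). These are the brightest probe sets. Of all those tested, 1 of 3 was higher for TLE4 and 1 of 4 for TLE3, and none was lower. TLE5, the short member of the family, known to oppose the full-length TLE proteins, was 1.56-fold higher.

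In the Notch pathway 18 of 26 genes were tested, 7 rose and 4 fell, a called share of 61.1%, beside 66.5% of all tested genes. MAML2, a coactivator of the Notch complex, had 8.58 ± 0.13 in induced and 3.04 ± 0.24 in uninduced samples (SD, n = 3 each), a rise of at least 24-fold by limma (adjusted p = 4.55e-07). Its relative MAML3 was 2.08-fold and the ligand JAG1 3.31-fold higher, and the glycosyltransferase MFNG, which modifies Notch receptors, 3.18-fold lower. The other falls, named after their values were seen, were NRARP (-1.11), a Notch target and inhibitor, POFUT1 (-0.47) and NOTCH2 (-0.28). Of the tested probe sets, 1 of 2 was called lower for POFUT1 and 2 of 4 for NOTCH2. After quantile normalization, after median centring, with array weights and without uninduced replicate 3 the count of falls was 7 instead of 4. Over all 15 alternatives that count ranged from 2 to 7. The DNA-binding factor RBPJ differed by -0.16 (adjusted p = 0.0650) and NOTCH1 by 0.13 (adjusted p = 0.326).

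BMP signals are a known inducer of ID1 and ID3. Of 20 genes of that pathway 14 were tested, of which 7 rose and 1, endoglin (ENG, -0.45), fell, a called share of 57.1%, beside 66.5% of all tested genes. The median was 0.33, against 0.02 over all genes. The receptors BMPR2 and ACVR1 were 2.42-fold and 2.08-fold higher (adjusted p = 2.15e-05 and 1.48e-05). For BMPR2 this is the brightest probe set, and 3 of its 5 tested probe sets were called higher. The BMP antagonist NOG was 3.25-fold higher, and SMURF1, a ligase that degrades SMAD proteins, 3.74-fold higher (adjusted p = 8.85e-04). The uninduced SMURF1 values were uneven, at 6.49, 6.33 and 5.36, against 7.89, 8.06 and 7.93 in induced samples. Its log2 difference of 1.90 ranged from 1.55 to 2.12 with each array left out in turn. The ligand BMP2 differed by 0.13 and the inhibitory SMAD7 by 0.35, neither passing (adjusted p = 0.292 and 0.0864). The number of falls was 0 to 3 over the alternatives: 3 after quantile normalization, 2 after median centring, with array weights or without uninduced replicate 3, and 0 with no filter, without _x_at and _s_at probe sets, or without uninduced replicate 1 or 2 or induced replicate 2 or 3.

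BHLHE40 and BHLHE41 repress genes that the clock activators CLOCK and BMAL1 drive. Of 20 clock genes 13 were tested, with 3 higher and 6 lower and a median of -0.08; the called share of 69.2% is near the 66.5% of all tested genes. CLOCK was 1.97-fold higher (adjusted p = 3.53e-04) and NFIL3, a bZIP repressor, 3.55-fold higher (10.37 ± 0.09 in induced and 8.54 ± 0.20 in uninduced samples, SD, n = 3 each; adjusted p = 1.41e-05). CRY1 was 1.69-fold and PER2 1.58-fold lower (adjusted p = 1.09e-04 and 6.87e-04), and DBP, chosen after its values were seen, was 1.84-fold lower. BMAL1 differed by 0.26 without passing (adjusted p = 0.0990).

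**Figure D4:**
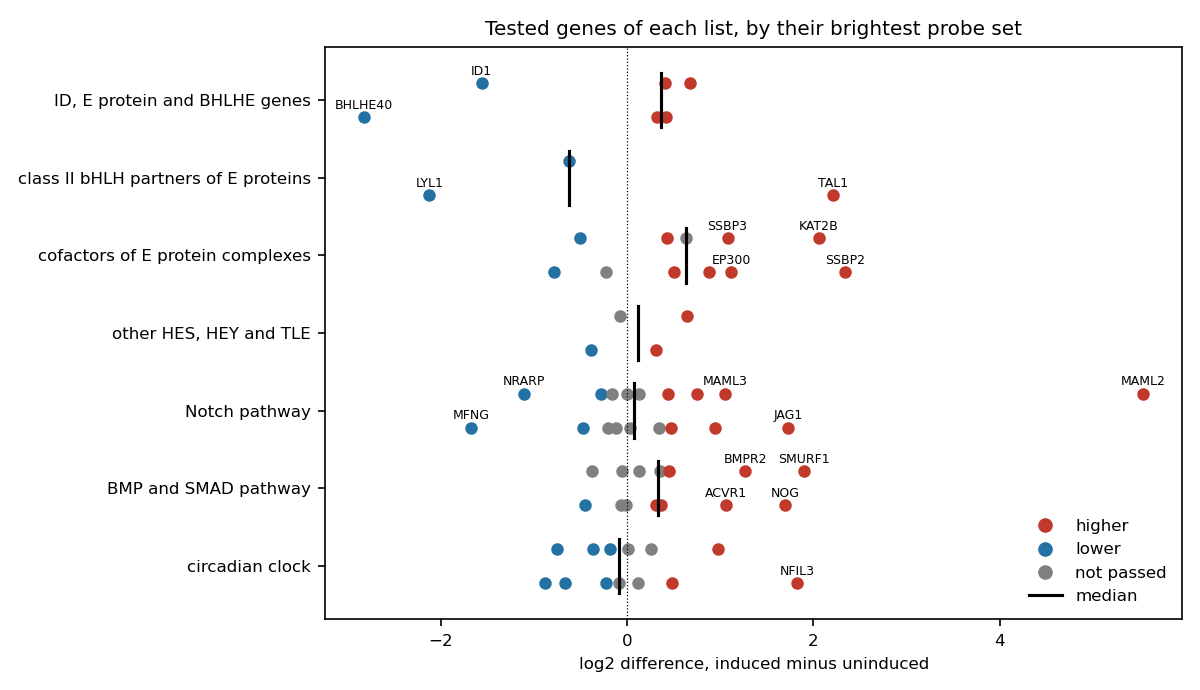
Log2 difference, induced minus uninduced (horizontal axis), of every tested gene of the 10 members and of 6 lists of related genes, each by its brightest probe set; red is higher, blue lower, grey not passed, and the black bar is the list's median. ID1 and BHLHE40 sit apart from the 4 other members at 0.32 to 0.68, and TAL1 and LYL1 lie on opposite sides by about the same distance.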

How the data were processed

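Total RNA was biotin labelled and hybridised to 1 array per sample, and samples were grouped by their titles. The authors deposited 1 intensity per probe set and array on a linear scale, and the submitters' processing notes name GCRMA. That method corrects background from probe sequence and draws dim probe sets towards a low value that hardly varies between arrays, so a change there can be hidden. No source used here gives its version or settings. The log2 was taken after raising 6 values under 1 to 1, and 62 Affymetrix controls were left out. The annotation gave 1 symbol to 41091 probe sets; 1 probe set naming ID2 with another gene was not used. Differences were tested with limma 3.58.1 in R 4.3.3 (lmFit, eBayes, two-sided, no covariates) on the 20552 probe sets that passed; each gene is read from whichever of these has the highest mean. A fold is 2 to the power of the difference, or "at least" against log2 4 where a whole group lay under it. Symbols in lists with no probe set naming only that gene are not analysed here.

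The members, 6 related gene lists (122 genes, 63 tested) and marker lists were chosen with earlier results of these data known. Named were all member probe sets, at most 4 genes of each list, taken by adjusted p, and the 3 genes most like the member with the largest difference. ENG, RBPJ, NOTCH1, BMP2, SMAD7 and BMAL1 were added outside this rule, after their values were seen. Alternatives were no filter, a filter at log2 6, quantile normalization, median centring, array weights, a trended robust eBayes, a replicate block, each array left out, a mean across the probe sets of a gene, and no _x_at or _s_at probe sets. Data were simulated for the 20552 probe sets, with 50 changed at each size. The fit recovered 38% of changes of 0.5, 92% of 1, 96% of 2 and 100% of 4, with 8 wrong calls among 171. Few probe sets were changed there, whereas 62.5% were called in the real data. The Benjamini-Hochberg adjustment is stricter where few probe sets change, so these shares do not describe the real comparison. Motifs were searched in Python 3.11.15 in RefSeq promoter windows (GRCh38.p14), which matched all 10 genes with 23 windows; figures used matplotlib 3.10.9.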

Additional observations from a re-analysis of the deposited data

How the results depend on the processing

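ID1, both ID2 probe sets, BHLHE40, both TCF12 probe sets, TCF3 209153_s_at and 202648_at, and TCF4 212386_at, 213891_s_at, 203753_at and 222146_s_at kept their direction and passed under every alternative that could be run on them. ID1 ranged from -1.64 to -1.48, ID2 201565_s_at from 0.24 to 0.35 and BHLHE40 from -2.97 to -2.75. Quantile normalization moved the median difference by -0.09 and median centring by -0.08, and all probe sets then gave 6759 higher and 8077 lower calls, or 6579 and 7106, against 7112 and 5733 as deposited. After quantile normalization 5 member probe sets were lower instead of 3, the added ones being TCF3 209151_x_at (-0.31) and TCF4 212387_at. With the _x_at and _s_at probe sets left out only TCF3, TCF4 and TCF12 had a tested probe set, so 3 genes were called instead of 6, 2 of them higher and 1 lower. The lower one is TCF3 at -0.73, which rests on 202648_at alone, and whether that probe set measures TCF3 was not tested. The dimmer TCF3 probe set that remained, 216647_at, differed by 0.03 and did not pass. Under quantile normalization and median centring the sign turned for TCF3 215260_s_at (-0.11 and -0.02; -0.04 with array weights), TCF3 216647_at (-0.14 and -0.05) and TCF4 212387_at (-0.20 and -0.07). With arrays left out in turn, TCF3 215260_s_at ranged from -0.07 to 0.15, TCF3 209151_x_at from -0.19 to 0.00, TCF3 216647_at from -0.09 to 0.14 and TLE3 from -0.19 to 0.05. The cause was not tested. The deviations of arrays with the same replicate number correlated at -0.17, 0.00 and 0.18, and 1 of 3 arrays in each group correlated best with its own number, so the numbers were not taken as pairs. With the replicate block 15 member probe sets were called instead of 14, and 12809 of all instead of 12845. Signal near the floor limits ID3, ID4, BHLHE41 and HES1, which had no testable probe set.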
